A study of Canis lupus familiaris with 12 samples.

Results

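The comparison described here set canine mast cell tumour cells kept with the tyrosine kinase inhibitor masitinib for 24 h against the same cells after 12 h of the drug. Its members were chosen by array title, 3 arrays at each of the 2 times, and they made up 6 of the 12 arrays of the series. The cells were C2, a continuous line from a mast cell tumour of a dog, in which a mutant KIT receptor is active in the absence of stem cell factor, and every array came from this 1 line. Each array held RNA from 1 of 3 flasks kept with 100 nM masitinib for 12, 24 or 72 h, or from 1 of 3 flasks taken without the drug at 0 h, the only control. Since no untreated flask was taken at 12 or 24 h, hours with the drug and hours in culture cannot be told apart. The platform was the Affymetrix Canine Genome 2.0 array, and all levels below are the authors' normalized log2 expression values, in which a difference of 1 is a doubling. The flasks carry no label of separate thaws or days, so p-values measure the spread between flasks of 1 line.

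KIT is the receptor for stem cell factor, on which mast cells depend for growth and survival, and in cells driven by an active KIT mutant its inhibitors lower proliferation. A dividing cell switches its genes on in order. Genes for DNA replication are expressed from late G1 into S phase, mainly under the E2F factors. Genes for chromosome condensation, the spindle and cytokinesis follow in G2 and mitosis under B-MYB and FOXM1. When cells leave the cycle both groups are repressed. In RNA from a whole flask, fewer cells in a phase and less of a transcript per cell cannot be told apart.

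The arrays of a time point were close to each other. Across probe sets, Pearson's r was 0.9964 to 0.9979 within a time point and 0.9899 to 0.9912 between arrays at 12 h and 24 h. The 13 measured mast cell markers had mean levels of 5.62 (IL1RL1) to 14.4 at 12 h, with FCER1G at 6.63, levels that cannot be ranked between probe sets, and their summed level was 16.81 to 16.83 (log2) on the arrays at 12 h and 17.05 to 17.12 at 24 h. The bacterial poly-A control transcripts, which are added to the RNA sample during labelling, averaged 8.70 to 8.81 on the arrays at 12 h and 8.95 to 9.21 at 24 h, and their part in the results was not tested beyond the scaling to them given below.

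Between 12 h and 24 h, 213 of 15115 genes were up-regulated and 468 were down-regulated at a Benjamini-Hochberg adjusted p under 0.001 from limma and more than 1.5-fold change, each gene being read from its brightest probe set. These were 1.41% and 3.1% of the genes tested. The larger changes were mostly decreases. Of the genes that changed more than 2-fold 48 rose and 253 fell, and of those past 4-fold 2 rose and 90 fell. Of the 29254 probe sets that carried 1 symbol, 344 (1.18%) rose and 817 (2.79%) fell, so 70.4% of the called probe sets were lower at 24 h. Scaling the arrays to the poly-A controls lowered the median log2 difference of all genes from 0.03 to -0.28 and gave 96 rises and 2413 falls over probe sets, 96.2% of them falls. For all 681 genes called, the 3 arrays at 24 h lay apart from the 3 at 12 h, which was also the case for 20.1% of all genes in the upward and 16.9% in the downward direction.

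The decreases took in most of the named cell division genes. Of 119 measured genes in 5 lists of mitotic genes 84 (70.6%) fell, and of 104 measured genes in 5 lists of DNA replication, repair and chromatin genes 65 (62.5%) fell, against 3.1% of all genes. The median log2 difference was -1.51 over the mitotic genes and -0.91 over the replication genes. Of the 90 genes that fell more than 4-fold, 64 were in these lists, 53 mitotic and 11 of replication. The mean level over the mitotic genes was 9.18 ± 0.06 (SD, n = 3) at 12 h and 7.61 ± 0.05 (n = 3) at 24 h, and that over the replication genes was 8.80 ± 0.05 and 7.78 ± 0.05.

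**Figure D1:**
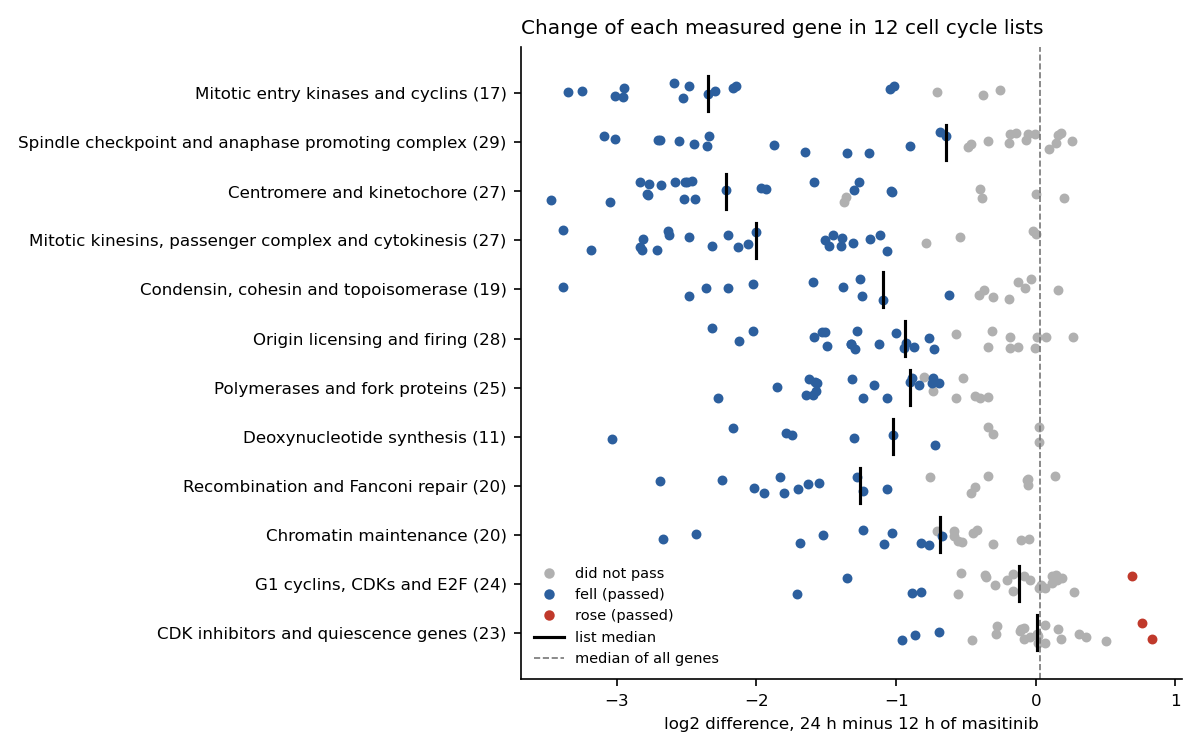
Log2 expression difference between 24 h and 12 h of masitinib (x axis) for each measured gene of the lists of cell division genes (y axis, 1 row per list), with 1 point per gene (called decreases blue, called increases red, others grey), the list median as a black bar and the median of all genes as a dashed line. In the 5 mitotic rows 80 of the 119 points are called decreases below -1, with medians down to -2.34, while the rows of G1 cyclins and of CDK inhibitors centre near 0.

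Genes for entry into mitosis had the lowest median of all lists, with 14 of 17 members down-regulated and a median log2 difference of -2.34. Cyclin A2 and the B cyclins are the activating subunits of CDK1. CCNA2 had levels of 10.03, 10.13 and 10.19 at 12 h and 7.02, 6.74 and 6.54 at 24 h. CCNB2 had levels of 11.72, 11.74 and 11.71 at 12 h and 8.63, 8.30 and 8.47 at 24 h. For both cyclins every array at 24 h was more than 2 units below every array at 12 h. CCNA2 thus fell by 3.35 ± 0.13 (SE), 10.2-fold (adjusted p = 3.1e-09, limma), and CCNB2 fell by 3.25 ± 0.11 (adjusted p = 1.2e-09, limma). The kinase CDK1 itself measured 11.02, 10.97 and 10.91 at 12 h and 8.50, 8.39 and 8.56 at 24 h, a decrease of 5.58-fold without overlap. The transcription factor FOXM1, which drives mitotic genes, measured 8.99, 9.08 and 9.10 at 12 h and 6.23, 5.91 and 6.17 at 24 h, and MYBL2 (B-MYB) fell by 2.14. The Aurora A activator TPX2 (-3.01) and the mitotic kinases NEK2 (-2.95), AURKA (-2.59), AURKB (-2.30) and PLK1 (-2.34) fell as well, log2 differences being given in parentheses here and below. MASTL and BORA, which act on the phosphatase that opposes CDK1 and on PLK1, had differences of -1.05 and -1.01, both called. The 3 members that did not pass were CDC25B (-0.71), PKMYT1 (-0.26) and WEE1 (-0.38), of which WEE1 and PKMYT1 are the kinases that hold CDK1 inactive. All 17 members, these 3 included, were lower on every array at 24 h, as were 16.9% of all genes. After poly-A scaling 16 of the 17 fell.

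Among the genes of the spindle checkpoint and of the anaphase promoting complex 15 of 29 fell, with a median difference of -0.65, and its members with different tasks had different values. The checkpoint kinase genes had large decreases. BUB1B measured 9.61, 9.77 and 9.79 at 12 h and 6.81, 6.48 and 6.60 at 24 h, a decrease of 8.53-fold (adjusted p = 8.1e-09, limma), and TTK fell by 3.02. CDC20, the mitotic activator of the complex, measured 11.81, 11.84 and 11.89 at 12 h and 9.27, 8.92 and 9.24 at 24 h, and its arrays at the 2 times were well apart. Decreases were also called for securin (PTTG1, -2.69), separase (ESPL1, -2.34), an inhibitor of the complex (FBXO5, -2.35) and the checkpoint gene KNTC1 (-2.55). In contrast, the 12 measured core subunits of the complex had a median difference of -0.16, and 2 of them passed, CDC23 at -1.19 and ANAPC1 at -0.90. The G1 activator of the complex, FZR1, had a difference of -0.06 and did not pass.

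Kinetochore genes encode the structure that joins chromosomes to the spindle, and 21 of 27 fell, with a median difference of -2.22. MIS18A, which is needed to load the centromeric histone, measured 9.74, 9.65 and 9.82 at 12 h and 6.39, 6.15 and 6.27 at 24 h. This was the largest decrease of any gene apart between the times, 11.1-fold (adjusted p = 8.3e-10, limma). All 4 members of the NDC80 complex, which binds the microtubule, fell: NUF2 (-3.05), SPC25 (-2.68), SPC24 (-2.52) and NDC80 (-2.44). Of 13 measured CENP genes 10 fell, with a median difference of -1.93. CENPF measured 9.92, 10.14 and 9.96 at 12 h and 6.00, 7.97 and 7.56 at 24 h, with the first array at 24 h well below the other two. Its SE was 0.47, and the call (adjusted p = 9.8e-04, limma) was lost without any 1 array but 24 h replicate 2 (adjusted p 0.00226 to 0.00554). DSN1 (-2.78) and SKA3 (-2.78) of the kinetochore and SGO1 (-2.77), which protects centromeric cohesion, fell too.

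**Figure D2:**
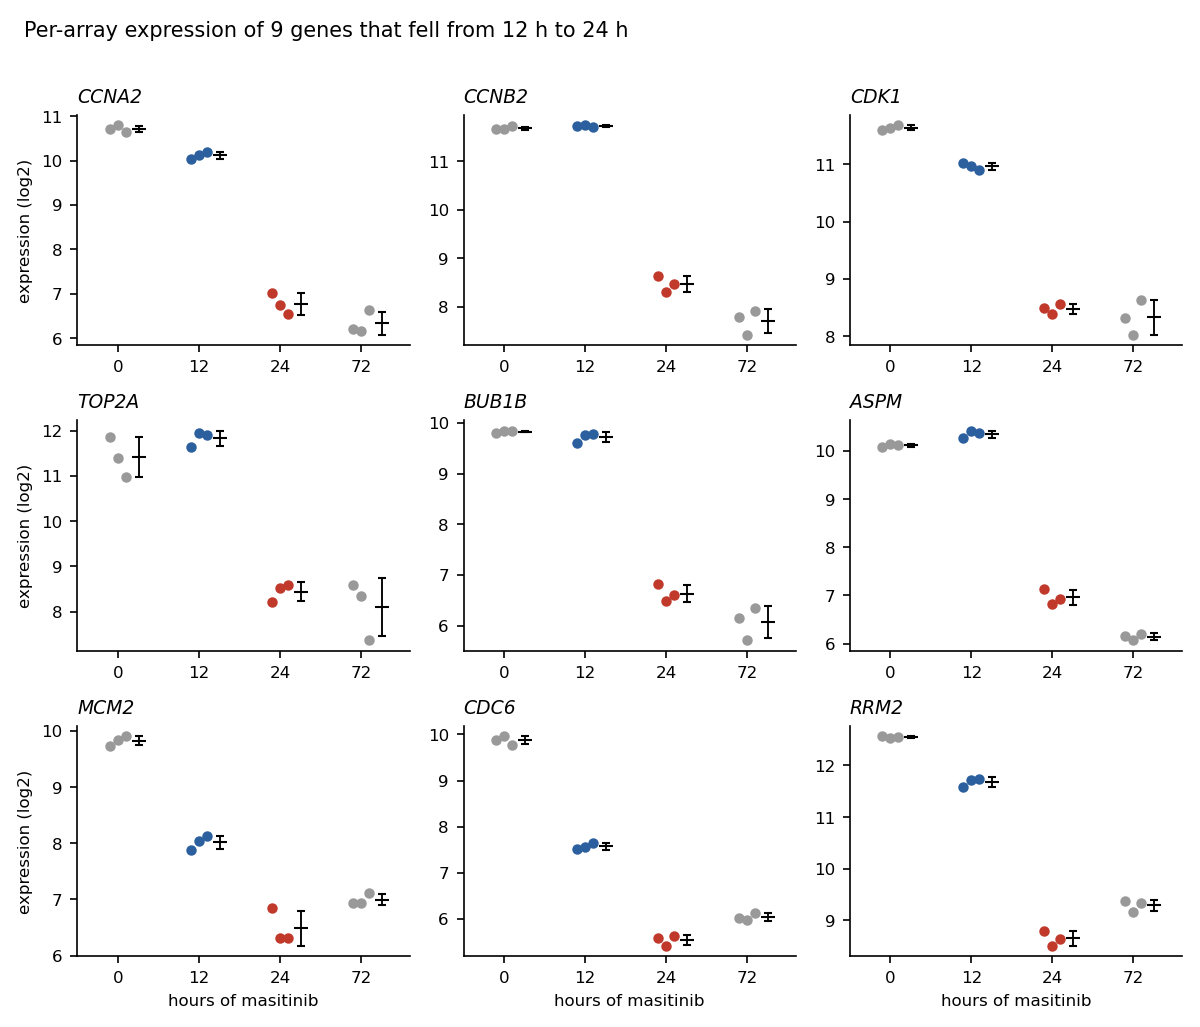
Log2 expression level (y axis) of 9 cell division genes on each array (points) at 0, 12, 24 and 72 h of masitinib (x axis), with the mean and SD of 3 arrays as bars, 12 h in blue, 24 h in red and the other times in grey. In each panel the 3 red points lie below the 3 blue points; CCNB2, TOP2A, BUB1B and ASPM differ little between 0 h and 12 h, whereas MCM2 and CDC6 are already lower at 12 h than at 0 h.

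Among motor and cytokinesis genes 23 of 27 were down-regulated, with a median difference of -2.01. With the mean over all probe sets of each gene in place of the brightest the median was -1.31. ASPM, a spindle pole protein, measured 10.26, 10.41 and 10.37 at 12 h and 7.13, 6.82 and 6.93 at 24 h, a decrease of 10.4-fold. ECT2, the exchange factor that starts the cleavage furrow, measured 8.28, 8.25 and 8.40 at 12 h and 5.24, 4.92 and 5.20 at 24 h, a decrease of 9.1-fold. In both genes the 2 groups of arrays were separated by more than 2 units. Of 11 kinesins 9 fell, among them KIF11 (-2.84) and KIF15 (-2.82), the motors that push spindle poles apart. The midbody protein CEP55 fell by 2.81. The hyaluronan receptor and spindle protein HMMR fell by 1.31, a call that was lost without any 1 array but 24 h replicate 2 (adjusted p 0.00111 to 0.00172). For the chromosomal passenger complex, 3 of 4 genes passed, with INCENP at -1.39 and BIRC5 (survivin) at -1.19 beside AURKB.

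Condensin and cohesin are related ring complexes, the first compacting mitotic chromosomes and the second holding sister chromatids together. Of 8 condensin subunits 7 fell, with a median of -1.42, and NCAPG2 at -2.48, NCAPH at -2.36 and NCAPG at -2.02 were lowest. Of the 5 core cohesin subunits 1 passed, SMC1A at -1.38, and their median was -0.30. ESCO2, which acetylates cohesin in S phase, fell by 2.20. DNA topoisomerase II alpha, which disentangles chromosomes before they separate, had the second largest decrease among the genes of the lists. Its gene TOP2A measured 11.64, 11.94 and 11.91 at 12 h and 8.21, 8.53 and 8.59 at 24 h, a decrease of 10.5-fold (adjusted p = 2.6e-06, limma). A second TOP2A probe set was called in the same direction.

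For DNA replication 18 of 28 origin genes and 18 of 25 polymerase and fork genes fell, with medians of -0.93 and -0.90. Among origin genes the decrease was uneven within complexes. Of the MCM2 to MCM7 helicase subunits 5 of 6 fell, with a median of -1.31, while MCM6 (-0.31) did not pass. Of the 6 subunits of the origin recognition complex 2 fell, ORC1 (-1.50) and ORC6 (-1.32). The helicase subunit gene GINS4 (-2.32), the licensing factor CDC6 (-2.03) and the licensing inhibitor geminin (GMNN, -1.59) fell. At the fork, RPA2, a subunit of the protein that coats single-stranded DNA, measured 10.15, 10.26 and 10.22 at 12 h and 7.94, 7.89 and 7.98 at 24 h, without overlap. All 4 polymerase alpha and primase genes fell: PRIM2 (-1.57), POLA1 (-1.16), POLA2 (-1.06) and PRIM1 (-0.73), the last call being lost without any 1 array but 12 h replicate 1 and 24 h replicate 3 (adjusted p 0.00133 to 0.0014). The nuclease DNA2 (-1.85), the polymerase epsilon genes POLE (-1.64) and POLE2 (-1.60), the clamp loader gene DSCC1 (-1.62) and the sliding clamp PCNA (-1.31) fell.

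Deoxynucleotide synthesis had 7 of 11 genes down-regulated. RRM2, the regulatory subunit of ribonucleotide reductase that limits the supply of deoxynucleotides, measured 11.57, 11.73 and 11.75 at 12 h and 8.79, 8.51 and 8.64 at 24 h, a decrease of 8.2-fold (adjusted p = 1.8e-10, limma). Its catalytic partner RRM1 (-1.74), thymidine kinase TK1 (-2.17), deoxycytidine kinase DCK (-1.79) and the nucleoside diphosphate kinase NME1 (-1.30) fell. Of 20 recombination and Fanconi genes 12 fell, led by the glycosylase NEIL3 (-2.69), RAD51AP1 (-2.25), FANCD2 (-2.02), FANCI (-1.95) and UBE2T (-1.83), the last 3 being the Fanconi pair placed on damaged DNA and its ubiquitin-conjugating enzyme. Of 20 chromatin genes 10 fell, with the histone chaperone ASF1B at -2.67, lamin B1 (LMNB1) at -1.69, the polycomb methyltransferase EZH2 at -1.52 and SUV39H1 at -1.24. TMPO, of the nuclear lamina, had a difference of -2.43, and its call was lost without any 1 array but 12 h replicate 3 and 24 h replicate 2 (adjusted p 0.00115 to 0.00126).

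The neighbouring intervals place these decreases in the time course. The intervals share the 12 h and 24 h arrays, so their values are given side by side without a test of likeness. From 0 h to 12 h, from 12 h to 24 h and from 24 h to 72 h the median log2 difference over the 119 mitotic genes was -0.35, -1.51 and -0.04. Over the 104 replication genes it was -0.74, -0.91 and 0.19. CDC6 had a difference of -2.30 in the first interval and -2.03 in the second, MCM2 -1.81 and -1.53, and MCM5 -0.32 and -2.12. DCTPP1, which cleaves dCTP, had -2.42 in the first interval and -0.30 in the second, and the chromatin helicase HELLS -2.42 and -0.45, and neither passed from 12 h to 24 h. DCTPP1 and HELLS were picked after their values were seen.

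Of 24 G1 cyclin, CDK and E2F genes 4 (16.7%) fell and 1 (4.17%) rose, against 3.1% and 1.41% of all genes. After poly-A scaling 8 fell and the rise did not pass. The decreases were those of E2F8 (-1.71), an E2F that represses its targets, LIN9 (-1.35), a subunit of the DREAM and MuvB complexes, cyclin E1 (CCNE1, -0.88) and CDK4 (-0.82). Cyclin D2 (CCND2) rose by 0.69. Cyclin D1 (CCND1) had a difference of -0.04 after one of -1.94 from 0 h to 12 h, and the phosphatase CDC25A -0.16 after -2.45. Of 23 CDK inhibitors and quiescence genes 2 (8.7%) rose and 3 (13%) fell, against 1.41% and 3.1% of all genes. The rises were the stress-responsive SESN1 by 0.83 and the thioredoxin inhibitor TXNIP by 0.76, neither of them called after poly-A scaling. The falls were the INK4 inhibitors CDKN2C (-0.87) and CDKN2D (-0.69) and PDK4 (-0.96), which restrains pyruvate oxidation. CDKN1A (p21) had a difference of 0.50 (adjusted p = 0.0036, limma), below the 1.5-fold limit.

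Genes with the largest decreases outside the lists included several with known parts in division. CKAP2L, a spindle protein, measured 8.49, 8.51 and 8.42 at 12 h and 4.94, 5.13 and 5.21 at 24 h. The meiotic recombination gene MND1 (-3.25), DEPDC1 (-3.17), CDCA3 (-3.16), the kinase MELK (-3.13) and a gene listed as LOC485338 (-3.12) had differences of more than 3 units. Next came PLK4, the kinase that starts centriole duplication (-2.95), SHCBP1 (-2.95), GTSE1 (-2.90), DEPDC1B (-2.82) and the mitotic kinase PBK (-2.79). Each of these genes had its 3 arrays at 24 h below the 3 at 12 h, which the rule for naming them required.

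Lists of protein synthesis genes had medians near 0. The 47 ribosome biogenesis genes had a median difference of -0.03, against -0.88 in the interval from 0 h to 12 h. Of these genes 2 rose and 2 fell (4.26% each), against 1.41% and 3.1% of all genes. Those that fell were the nucleolar proteins NHP2 (-1.07) and NPM1 (-0.91), and those that rose were the RNA polymerase I subunit POLR1C (0.75) and HEATR1 (0.66), neither of which passed after poly-A scaling. The 51 cytosolic ribosomal protein genes had a median of 0.02 with no call by limma, with 5 of 51 at an unadjusted p under 0.05 (4 higher, 1 lower) and 0 called by the methods' analysis of variance. For aminoacyl-tRNA synthetases the median was -0.07 after -0.65 in the first interval, again with no call, with 7 of 18 at an unadjusted p under 0.05 (1 higher, 6 lower) and 0 called by the methods' analysis of variance. Of 36 nuclear pore and transport genes 8 (22.2%) fell, with NUP160 at -1.26, the chromatin-bound Ran exchange factor RCC1 at -1.15, RANBP1 at -0.77, IPO7 at -0.77 and KPNA2 at -0.72. Of 44 splicing genes 5 (11.4%) fell, HNRNPA3 (-1.12), SNRPA1 (-1.06), HNRNPA2B1 (-0.74), HNRNPM (-0.71) and SNRPF (-0.59). SNRPF was not called without 12 h replicate 1 or 24 h replicate 3 (difference -0.57 to -0.55). After poly-A scaling 16 nuclear pore, 14 splicing and 5 ribosome biogenesis genes fell, 2 tRNA synthetases fell, and the median of the ribosomal proteins was -0.29.

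**Figure D3:**
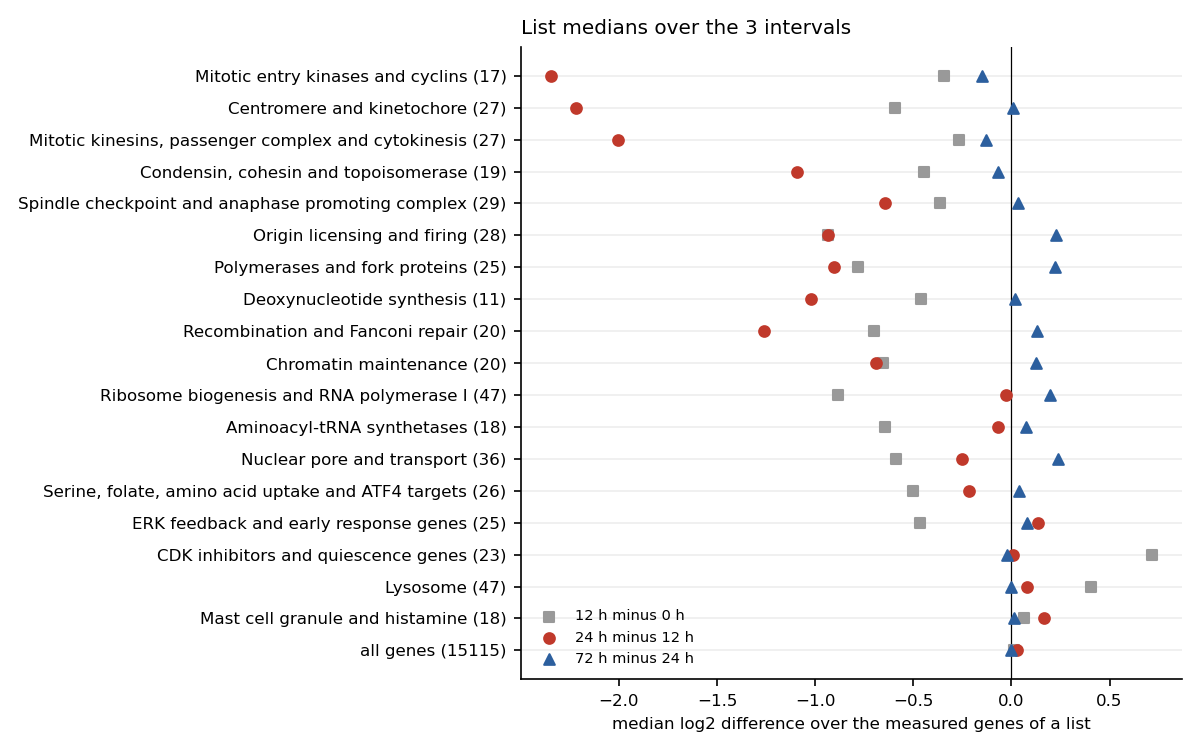
Median log2 expression difference (x axis) over the measured genes of selected lists and over all genes (y axis). The intervals 0 h to 12 h, 12 h to 24 h and 24 h to 72 h each have their own marker. Mitotic lists have their lowest median between 12 h and 24 h, and ribosome biogenesis has -0.88 in the first interval and -0.03 in the second. The 40 lists outside mitosis and replication, only some of them drawn, had medians between -0.25 and 0.17 from 12 h to 24 h.

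Of 32 heat shock and chaperone genes 3 (9.38%) fell, against 3.1% of all genes, and 9 fell after poly-A scaling. The 3 were the histone-binding cochaperone DNAJC9 (-1.06), mitochondrial HSPD1 (-0.66) and HSP90B1 (-0.60) of the endoplasmic reticulum. HSP90B1 was not called without 12 h replicate 3 or 24 h replicate 3 (difference -0.58). In the unfolded protein response 2 of 26 genes (7.69%) fell and 1 (3.85%) rose, against 3.1% and 1.41% of all genes. After poly-A scaling 4 fell. PDIA4 (-0.98) and ERO1A (-0.81), which form disulfide bonds, were the 2 decreases, and the cochaperone DNAJB9 rose by 0.91. The 33 proteasome genes had a median of -0.24 and 26 of them were lower on every array at 24 h, as were 16.9% of all genes. None of the 33 passed by limma, with 24 of 33 at an unadjusted p under 0.05 (1 higher, 23 lower) and 0 called by the methods' analysis of variance. After poly-A scaling 11 of the 33 fell, with a median of -0.55.

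Among metabolic genes the list with most calls was that of serine, folate, amino acid uptake and ATF4 targets. In it 9 of 26 genes (34.6%) fell, against 3.1% of all genes. This list takes in the synthesis of serine and of one-carbon units, which feed nucleotide synthesis. PSAT1, the aminotransferase of serine synthesis, measured 12.45, 12.39 and 12.50 at 12 h and 10.71, 10.56 and 10.55 at 24 h, a decrease of 3.59-fold (adjusted p = 1.0e-09, limma). PHGDH, its first enzyme, measured 12.10, 12.08 and 12.12 at 12 h and 10.66, 10.36 and 10.43 at 24 h, a decrease of 3.07-fold. In neither gene did the arrays of the 2 times overlap. Of the 3 measured serine synthesis enzymes these 2 fell, and the other (-0.33) did not pass. Asparagine synthetase (ASNS, -1.14), the mitochondrial folate enzyme MTHFD2 (-1.10) and the spermidine synthase SRM (-0.94) fell too. Among NRF2 and glutathione genes 4 of 25 (16%) fell, NQO1 (-1.08), GCLM (-0.73), PRDX6 (-0.59) and GSR (-0.59). The cholesterol list had 2 decreases in 26 genes (7.69%), FDPS (-0.77) and INSIG1 (-0.62). The respiratory chain had 1 in 45 (2.22%), CYC1 (-0.59), a share below the 3.1% of all genes. After poly-A scaling 11 genes of the serine and folate list, 8 of the NRF2 list, 8 of the cholesterol list and 7 of the respiratory chain fell. The calls of GSR were lost without any 1 of the 6 arrays (adjusted p 0.0023 to 0.00379), of PRDX6 without 12 h replicate 3 or 24 h replicate 2 (difference -0.58), of INSIG1 without 12 h replicate 3 or 24 h replicate 2 (difference -0.58 to -0.55) and of CYC1 without 12 h replicate 1 or 24 h replicate 2 (difference -0.57).

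The largest increases belonged to genes of varied function, and 12 of the 15 largest were in none of the lists. VSNL1, a calcium sensor protein, measured 5.64, 5.78 and 5.93 at 12 h and 8.01, 7.83 and 7.95 at 24 h, an increase of 4.44-fold (adjusted p = 6.5e-07, limma). CD5L, a secreted scavenger receptor protein known from macrophages, measured 4.81, 4.81 and 4.73 at 12 h and 7.20, 6.50 and 6.78 at 24 h, an increase of 4.13-fold. Both genes had every array at 24 h more than 1 unit above every array at 12 h. KDR, the VEGF receptor of endothelial cells, measured 9.07, 9.16 and 9.09 at 12 h and 10.99, 10.85 and 10.89 at 24 h, an increase of 3.5-fold. The other endothelial markers, CDH5, TEK, VWF and CLDN5, did not pass, while PECAM1, also an endothelial marker though not in this list, rose by 1.48 and is described below. The 5 listed markers summed to 9.64 to 9.75 (log2) at 12 h and 11.09 to 11.19 at 24 h, a sum that includes KDR; the part of endothelial cells in this result was not tested. The serotonin transporter SLC6A4 measured 6.17, 6.10 and 5.88 at 12 h and 7.68, 7.45 and 7.55 at 24 h and rose by 1.51. ESYT3, the glycine cleavage enzyme GLDC, the carboxypeptidases CPB1 and CPE, the lipid transporter ABCA5, FHIT, CLSTN2 and the microRNA export factor XPO5 rose by 1.82, 1.63, 1.44, 1.37, 1.43, 1.36, 1.36 and 1.35. Each of the 15 largest increases also passed after scaling to the poly-A controls. Next outside the lists came GDF3 (1.31), GKN1 (1.31), the pseudokinase TRIB1 (1.29), EBPL (1.27) and LMO7 (1.25). Of the probe sets of VSNL1 1 of 2 was called, and of those of CPB1, CLSTN2 and TRIB1 1 of 3 each. For LMO7 3 of 6 were called, and for CD5L, ABCA5, CPE, FHIT, GDF3 and EBPL every probe set was called.

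**Figure D4:**
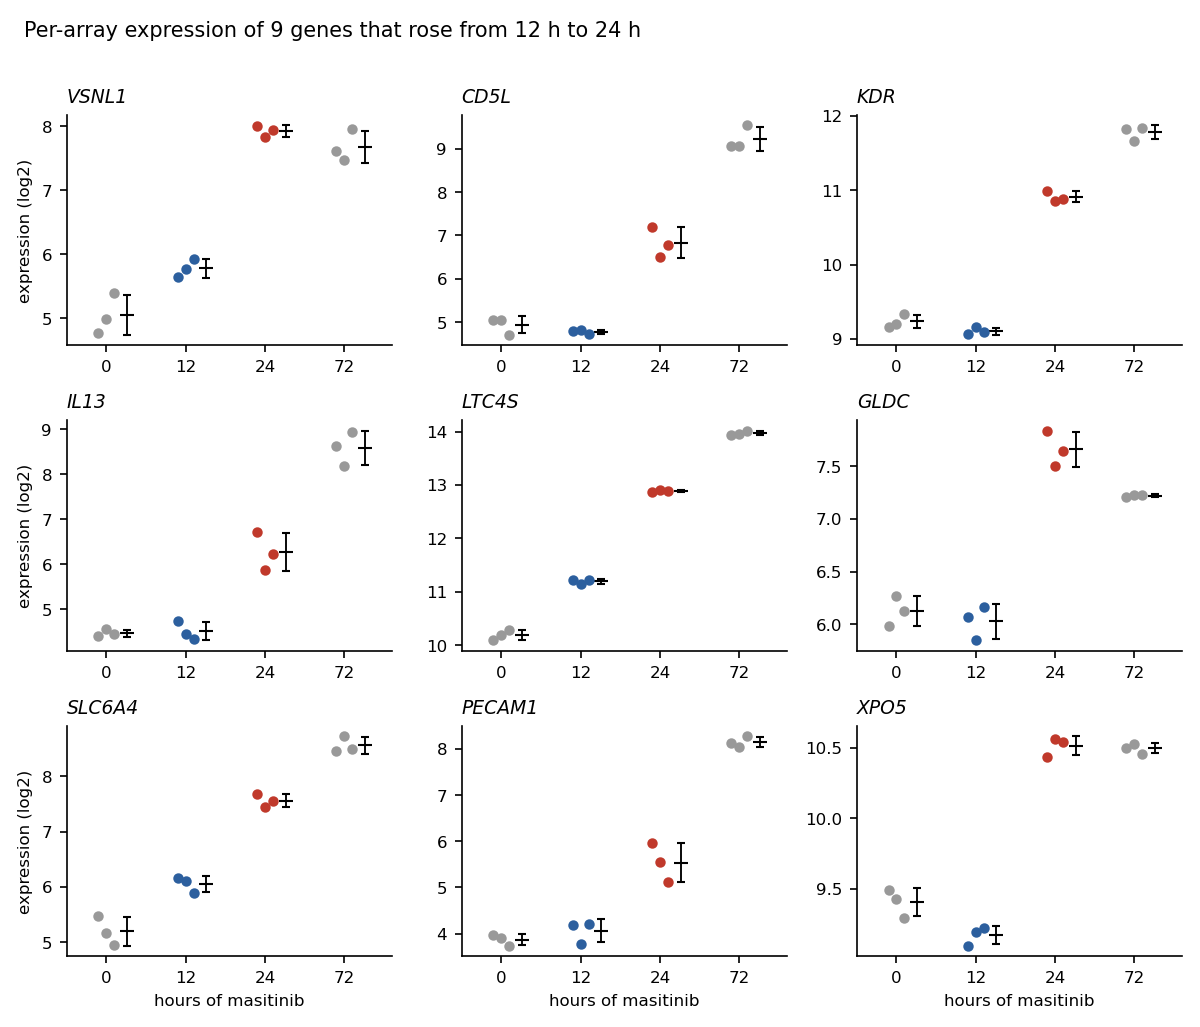
Log2 expression level (y axis) of 9 of the 15 genes with the largest increase on each array (points) at 0, 12, 24 and 72 h of masitinib (x axis), with the mean and SD of 3 arrays as bars, 12 h in blue, 24 h in red and the other times in grey. In each panel the 3 red points lie above the 3 blue points, as for LTC4S with 11.15 to 11.23 at 12 h and 12.86 to 12.90 at 24 h.

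Mast cell genes had a small number of increases. LTC4S, which makes leukotriene C4 from arachidonic acid products, measured 11.21, 11.15 and 11.23 at 12 h and 12.86, 12.90 and 12.89 at 24 h, 3.23-fold higher at 24 h (adjusted p = 1.8e-09, limma). With PTGS1 (cyclooxygenase 1), which rose by 0.59, it made 2 increases among 18 granule, histamine and eicosanoid genes (11.1%), against 1.41% of all genes. PTGS1 was not called without 12 h replicate 1 or 24 h replicate 1 (difference 0.57 to 0.58). The granule protease genes CPA3 and CMA1 had differences of 0.14 and 0.27, and histidine decarboxylase (HDC), which makes histamine, 0.46, and these 3 did not pass. None of the 28 genes of the IgE receptor and its signalling passed by limma, with 15 of 28 at an unadjusted p under 0.05 (13 higher, 2 lower) and 0 called by the methods' analysis of variance, and 14 of them were higher on every array at 24 h, as 20.1% of all genes were. The median of this list turned from 0.17 to -0.14 after poly-A scaling, as did that of the granule, histamine and eicosanoid list. FCER1A and MS4A2, receptor subunits, had differences of 0.25 and 0.23. Among 53 cytokines, chemokines and receptors 3 (5.66%) rose and 1 (1.89%) fell, against 1.41% and 3.1% of all genes. IL13, a type 2 cytokine, measured 4.74, 4.46 and 4.34 at 12 h and 6.71, 5.88 and 6.23 at 24 h, an increase of 3.39-fold, and IL6 rose by 1.17. The other two, CCL2 and CXCR6, are given with their time course below. The levels of IL13 at 12 h, like those of CD5L, PECAM1 and CLSTN2, lay below the median of all probe sets on those arrays (5.92 to 5.95). Those of VSNL1 did so on replicates 1 and 2. At 24 h the levels of CKAP2L, ECT2, PLK4, CEP55 and MND1, among other genes that fell, lay below the array medians (5.92 to 5.93). The size of a fold from or to so low a level is uncertain.

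Of 28 blood lineage transcription factors 3 (10.7%) rose, against 1.41% of all genes, GATA2 by 0.82, ZEB2 by 0.81 and GATA3 by 0.60. GATA2, which mast cells require, measured 7.86, 8.39 and 8.36 at 12 h and 9.00, 8.99 and 9.08 at 24 h, without overlap, and it was the only called one among the 13 mast cell markers. The call of GATA2 was lost without 24 h replicate 1, 24 h replicate 2 or 24 h replicate 3 (adjusted p 0.00197 to 0.00271) and that of GATA3 without 12 h replicate 1 or 24 h replicate 1 (difference 0.54 to 0.56). In the lysosome list 6 of 47 (12.8%) rose, against 1.41% of all genes, all 6 hydrolases or their activator. They were the cathepsins CTSF (0.99) and CTSS (0.70), alpha-mannosidase MAN2B1 (0.85), the GM2 activator GM2A (0.75), acid alpha-glucosidase GAA (0.74) and galactosylceramidase GALC (0.64). The calls of MAN2B1 were lost without 12 h replicate 1, 12 h replicate 2 or 12 h replicate 3 (adjusted p 0.00166 to 0.00226), of GAA without any 1 array but 12 h replicate 3 and 24 h replicate 2 (adjusted p 0.00106 to 0.00132) and of GALC without 12 h replicate 1 (difference 0.56). After poly-A scaling, which also turned the small positive medians of the lysosome list (0.08) and of the transcription factors (0.08) negative, 1 of the 6 lysosomal and none of the 3 transcription factor increases passed. At the cell surface PECAM1 (CD31), an adhesion receptor of endothelial cells, platelets and leukocytes, measured 4.19, 3.78 and 4.21 at 12 h and 5.96, 5.55 and 5.11 at 24 h and rose 2.78-fold, while ITGA2 fell by 1.18. Of 4 PECAM1 probe sets 1 was called, and that call was lost with only the 6 arrays at 12 h and 24 h (adjusted p = 0.00123, limma) and with the methods' analysis of variance. The call of ITGA2 was also lost with the methods' analysis of variance. Without the dimmest 40% of probe sets no decrease was called in its list. Among actin regulators and annexins gelsolin (GSN) rose by 0.90, and annexin A2 (ANXA2, -0.75) and ezrin (EZR, -0.61) fell. The circadian repressor BHLHE40 rose by 0.70, with 1 of 3 probe sets called. The deISGylating enzyme USP18 fell by 0.59, a call lost without any 1 of the 6 arrays (adjusted p 0.00121 to 0.00298, limma). Of the 49 increases named in the text, 28 passed after poly-A scaling and 21 did not, BHLHE40, CCND2, CTSS, EDNRB, GAA, GALC, GATA2, GATA3, GM2A, GSN, HEATR1, IER3, KLF5, MAN2B1, NFKBIA, PHLDA1, POLR1C, PTGS1, SESN1, TXNIP and ZEB2.

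Among the targets of masitinib KIT comes first. KIT measured 13.24, 13.25 and 13.19 at 12 h and 13.16, 13.66 and 13.43 at 24 h, and its arrays at the 2 times overlapped, with a difference of 0.19 ± 0.28 (SE). The other targets and related kinases had differences of -0.30 for PDGFRA, 0.02 for PDGFRB, 0.17 for LYN, 0.46 for FYN, -0.43 for LCK, 0.06 for SRC, 0.07 for CSF1R and -0.04 for FGFR3. In all, none of 15 genes of this group passed by limma, with 6 of 15 at an unadjusted p under 0.05 (4 higher, 2 lower) and 0 called by the methods' analysis of variance. After poly-A scaling the median turned from 0.06 to -0.25 and 1 gene fell, LCK. Of 25 ERK feedback and early response genes 3 (12%) rose, FOS, PHLDA1 (0.66) and IER3 (0.62), against 1.41% of all genes. In this list 13 were higher on every array at 24 h, as were 20.1% of all genes. After poly-A scaling 1 of the 3 passed, FOS, and the median of the list turned from 0.14 to -0.17. Of 2 FOS probe sets 1 was called. The call of PHLDA1 was lost without any 1 array but 12 h replicate 2 (adjusted p 0.00281 to 0.00465) and that of IER3 without 12 h replicate 2 (difference 0.57). EGR1 had a difference of 0.94 with an adjusted p of 0.0011 (limma), just outside the threshold. DUSP6, the phosphatase induced by ERK signalling, had a difference of 0.31 after one of -4.60 from 0 h to 12 h, and did not pass in this interval. NFKBIA, the NF-kappa-B inhibitor, was the 1 member of its list of 18 (5.56%) to rise (0.65).

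For some genes the level at 12 h lay to the other side of the levels at 0 h and 24 h. They were chosen by their changes in both intervals, which share the 12 h arrays, so levels alone are given. The chemokine CCL2 had mean levels of 10.93 ± 0.06 at 0 h, 8.15 ± 0.03 at 12 h, 9.35 ± 0.09 at 24 h and 11.16 ± 0.06 at 72 h (SD, n = 3 each). FOS had 7.90 ± 0.03, 5.42 ± 0.18, 6.45 ± 0.20 and 8.21 ± 0.12. Both were at their lowest at 12 h. The heparan sulfate sulfotransferase HS3ST1 had 8.07 ± 0.07, 6.72 ± 0.01, 7.90 ± 0.15 and 7.71 ± 0.17 at the 4 times. The stress kinase PLK3 had 7.12 ± 0.06, 5.62 ± 0.08, 6.70 ± 0.20 and 7.40 ± 0.16. GADD45G, a growth arrest gene, had 8.23 ± 0.09, 6.38 ± 0.31, 7.42 ± 0.04 and 6.92 ± 0.22. For these 3 genes the mean at 24 h lay nearer to that at 0 h than to that at 12 h. POLR1C had 11.41 ± 0.05, 10.16 ± 0.06, 10.91 ± 0.06 and 11.30 ± 0.03. The transcription factor KLF5 had 7.44 ± 0.08, 6.19 ± 0.11, 7.02 ± 0.12 and 6.95 ± 0.08, and the endothelin receptor gene EDNRB 7.57 ± 0.01, 6.30 ± 0.19, 6.89 ± 0.04 and 6.50 ± 0.14. At 24 h these were again between their levels at 12 h and 0 h. The call of EDNRB was lost without any 1 array but 12 h replicate 3 (adjusted p 0.00263 to 0.00436) and that of GADD45G without any 1 array but 12 h replicate 2 and 12 h replicate 3 (adjusted p 0.00102 to 0.00128).

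Other genes were highest at 12 h. The chemokine receptor CXCR6 had mean levels of 6.67 ± 0.05 at 0 h, 7.64 ± 0.07 at 12 h, 6.59 ± 0.03 at 24 h and 6.03 ± 0.13 at 72 h (SD, n = 3 each). RHEX, a regulator of erythroid growth, had 7.01 ± 0.15, 9.61 ± 0.08, 8.70 ± 0.07 and 6.84 ± 0.19 at these times. ATP6V0D2, a subunit of the proton pump, had 5.46 ± 0.19, 6.89 ± 0.04, 6.07 ± 0.16 and 5.65 ± 0.27. At 24 h the mean of CXCR6 was close to that at 0 h, and the mean of RHEX was still above it. PIP4P2, a lipid phosphatase, had 4.67 ± 0.14, 5.98 ± 0.21, 5.26 ± 0.14 and 5.75 ± 0.05, and the alpha kinase ALPK1 4.17 ± 0.11, 5.23 ± 0.10, 4.47 ± 0.17 and 4.53 ± 0.09. Osteopontin (SPP1) had 5.47 ± 0.21, 6.32 ± 0.12, 5.25 ± 0.07 and 4.14 ± 0.45. DDIT4, which restrains mTORC1, had 7.71 ± 0.08, 8.59 ± 0.10, 7.99 ± 0.03 and 7.54 ± 0.19. CENPF, described above, also met this rule. Probe sets called were 2 of 4 for ATP6V0D2, 1 of 4 for ALPK1, 1 of 3 for PIP4P2 and 1 of 2 for DDIT4. For CXCR6, RHEX, SPP1 and CENPF every probe set was called. The calls between 12 h and 24 h were lost for ATP6V0D2 without any 1 of the 6 arrays (adjusted p 0.00189 to 0.00461) and for SPP1 likewise without any 1 of the 6 arrays (adjusted p 0.00387 to 0.006). Those of DDIT4 were lost without any 1 array but 12 h replicate 1 (adjusted p 0.00238 to 0.00329) and of PIP4P2 without any 1 array but 12 h replicate 2 and 24 h replicate 1 (adjusted p 0.00279 to 0.00324).

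**Figure D5:**
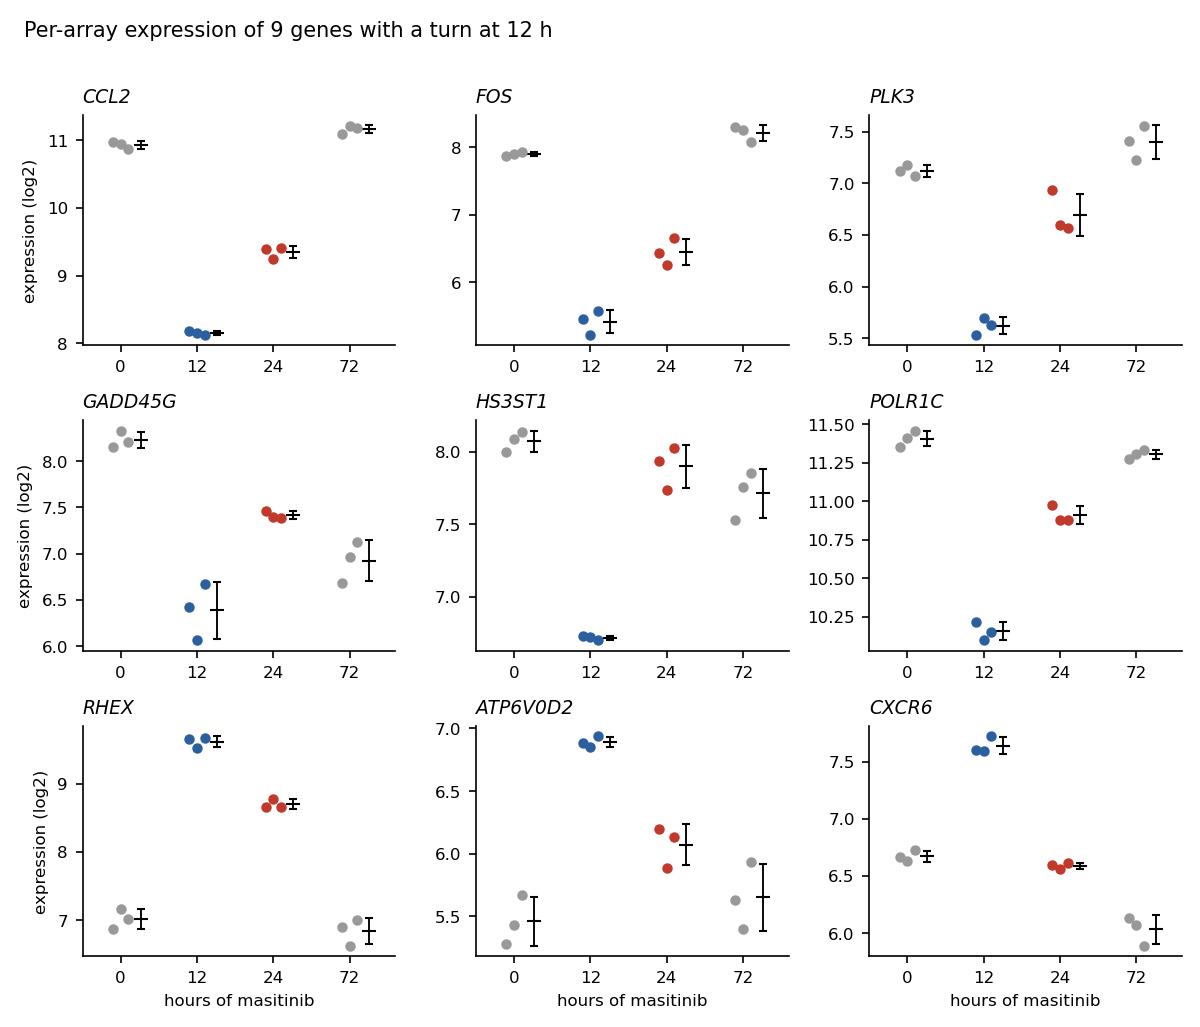
Log2 expression level (y axis) of 9 genes whose level at 12 h lay beyond those at 0 h and 24 h, on each array (points) at 0, 12, 24 and 72 h of masitinib (x axis), with the mean and SD of 3 arrays as bars, 12 h in blue, 24 h in red and the other times in grey. CCL2, FOS, PLK3, GADD45G, HS3ST1 and POLR1C are lowest at 12 h, and RHEX, ATP6V0D2 and CXCR6 are highest there.

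Besides KIT and the related kinases above, 23 measured genes were looked up from the study's text, mostly for proteins it names, and 3 were called between 12 h and 24 h, PECAM1, HSP90B1 and the pyrophosphatase PPA1 (-0.68). The other 20 had differences between -0.59 for the ketone body enzyme OXCT1 and 0.58 for parathyroid hormone (PTH, adjusted p = 1.2e-04, limma, under 1.5-fold). Of the cell type markers other than those of mast and endothelial cells, 1 was called, the epithelial adhesion gene EPCAM, which fell by 0.90; the 4 epithelial markers summed to 9.80 to 10.05 at 12 h and 9.19 to 9.25 at 24 h. Their part in the other results was not tested. In 17 lists no gene passed by limma, and of their 450 genes 191 had an unadjusted p under 0.05 (81 higher and 110 lower), with none called by the methods' analysis of variance. The share of all genes at an unadjusted p under 0.05 was not counted, so neither this count nor those of single lists above can be set against it. Of all genes, 20.1% were higher and 16.9% lower on every array at 24 h. After poly-A scaling 49 of the 450 fell, in 14 of the lists, among them 11 proteasome, 10 mitochondrial ribosome, 7 citrate cycle and 5 purine and pyrimidine genes. These lists were those of masitinib's targets, JAK and STAT signalling, tRNA synthetases, ribosomal proteins, translation factors, chaperonin, proteasome, autophagy, glycolysis, the citrate cycle, the mitochondrial ribosome, nucleotide synthesis, antigen presentation, IgE signalling, the BCL2 family, small GTPases and glucocorticoid targets.

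Other probe sets of a called gene mostly had the same sign. Of the 681 called genes 438 had other probe sets, 773 in all. Of these 335 were called in the same direction, 349 had the same sign without a call, 88 had the opposite sign without a call and 1 was called the opposite way.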

How the data were processed

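Expression was measured on 12 arrays of C2 cells, and the 3 at 12 h and 3 at 24 h of 100 nM masitinib are compared here. The authors processed the scanned arrays with the gcRMA workflow of Partek Genomics Suite 6.4 (background correction, quantile normalization, median polish), and they deposited 1 value on the log2 scale for each probe set of each array. Partek and RMA are also named in the processing notes of the submitters. Quantile normalization gives every array nearly the same distribution, so a shift of most transcripts in 1 direction is removed before any test, and a level cannot be compared between probe sets.

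From these values, limma 3.58.1 in R 4.3.3 (lmFit and eBayes) was fitted to all 12 arrays with 1 coefficient per time point, and the contrast of 24 h minus 12 h was tested. Benjamini-Hochberg adjustment covered 42924 probe sets, after 111 controls had been set aside from 43035. Probe sets were called below an adjusted p of 0.001 if they also changed by more than 1.5-fold. The study's methods set the same limits on q-values from analysis of variance, and that procedure, run as an alternative, gave 259 rises and 660 falls over probe sets with 1 symbol. Gene symbols came from the platform annotation, updated through Entrez identifiers for 27690 probe sets to the canine assembly UU_Cfam_GSD_1.0. Of all probe sets tested 29254 had 1 symbol, 439 several and 13231 none. Each of 15115 genes was read from its brightest probe set by the mean over 12 arrays. Tables and figures were made in Python 3.11.15 with numpy 2.4.6, pandas 2.3.3 and matplotlib 3.10.9.

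The 50 gene lists and the complexes within them were written from general knowledge with earlier results of these data known, and the complexes with their values known. Of 1594 list entries 1392 were measured under 1 symbol, and the others were not analysed here. Genes were named by rule: the 15 largest rises and falls without overlap, up to 5 called members and the first 4 entries of each list, masitinib's targets, genes looked up from the study's text, 8 genes per direction with opposite changes before and after 12 h, and the 5 largest changes per direction outside the lists. Named beyond the rule, after their values were seen, were ANAPC1, AURKA, AURKB, BIRC5, BORA, CDC23, CDC25A, CDC25B, CDK1, DCTPP1, DUSP6, EGR1, ESPL1, FBXO5, FZR1, GALC, HDC, HELLS, HMMR, INCENP, MASTL, MCM6, MYBL2, NDC80, ORC6, PCNA, PKMYT1, PLK1, SGO1, SMC1A, SPC24, SPC25 and WEE1, besides called or low cell type markers.

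Precision is limited by 3 arrays per time, with a median residual SD of 0.11 (log2). No 2 arrays were the same. On simulated data with 42924 probe sets the steps were tested: 88% of 100 with 2-fold and 98% of 100 with 4-fold change were called, with 0 false calls. The simulated noise was normal and independent between arrays and probe sets. Shifts shared by an array or a flask were therefore outside this test.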

Additional observations from a re-analysis of the deposited data

How the results depend on the processing

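The 1161 calls over probe sets (344 rises, 817 falls) stayed within 1.5 times of these counts when only the 6 arrays at 12 h and 24 h were fitted, and likewise with the methods' analysis of variance and q-values, without the dimmest 40% of probe sets, with a common median, with cyclic loess, with an intensity trend and at an adjusted p under 0.05. Scaling to the poly-A controls gave 2509 calls, 96 rises and 2413 falls, and the cause of the higher control signal at 24 h was not tested. A 2-fold minimum gave 499 calls, 77 rises and 422 falls. With no fold minimum there were 1895 calls and 716 rises, the threshold alone having been changed. Leaving out 1 array at a time gave 985 to 1034 calls, 264 to 341 rises and 668 to 770 falls. The decreases among the 119 mitotic genes numbered 80 to 97 over all of these alternatives, and those among the 104 replication genes 50 to 84. Averaging all probe sets of a gene moved the median of the kinetochore list from -2.22 to -1.82 and that of the motor and cytokinesis list from -2.01 to -1.31. The median of the condensin and cohesin list moved from -1.09 to -0.86. In the other lists of mitosis and replication the sign was kept and the moves were smaller. Origin genes moved from -0.93 to -0.86 and deoxynucleotide synthesis from -1.02 to -1.10. The replicate numbers were not taken as a pairing, since deviations of same-numbered arrays at 12 h and 24 h correlated at 0.01, 0.14 and 0.04; with the replicate block there were 1099 calls, 315 rises and 784 falls. Of the 49 increases and 137 decreases named, 9 and 11 lost their call with the methods' analysis of variance and 9 and 5 with only the 6 arrays. No gene named in the text had its direction turned with a call under any alternative. Depth has no counterpart on arrays: the limit here is the spread of 3 flasks per time, with a median residual SD of 0.11. Transcripts near background, and changes shared by most transcripts, cannot be resolved in quantile-normalized values. With 1 line, 1 dose and no untreated arrays beyond 0 h, the differences belong to these cultures at these times.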
